A study of Mus musculus with 9 samples.

Results

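The respiratory chain and ATP synthase subunits encoded in the nucleus were described in mouse splenic dendritic cells (DCs) with and without the transcription factor C/EBPβ. Members were all genes on a probe with exactly 1 gene symbol whose symbol marks them as subunits of complex I (Nduf), complex III (Uqcr), complex IV (Cox4 to Cox8) or complex V (Atp5), with the brightest probe standing for each gene. This gave 76 of the 22180 genes measured, on 85 probes, of which 33 belonged to complex I, 8 to complex III, 17 to complex IV and 18 to complex V. The symbols also brought in the pseudogenes Atp5c1-ps and Uqcrh-ps1, the supercomplex factor Cox7a2l and the paralog Ndufa4l2, and 72 members remained without them. Another 9 symbols that match the rule, among them Cox6c, Ndufs6 and Uqcr10, lay only on probes shared by several genes and were not counted.

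The respiratory chain sits in the inner mitochondrial membrane. Complex I takes electrons from NADH, complex II from succinate, and coenzyme Q carries them to complex III, from which cytochrome c delivers them to complex IV, where oxygen is reduced. Complexes I, III and IV pump protons as electrons pass, and complex V, the ATP synthase, uses the returning protons to make ATP. A few core subunits are encoded by mitochondrial DNA and all others by nuclear genes, and in DCs the balance between this pathway and glycolysis is known to shift when the cells are activated.

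The study asked what C/EBPβ does in DCs in the absence of disease. Cells positive for CD11c and MHC class II were sorted from spleens of untreated ("Naive") mice of the C57BL/6 background, to a purity stated as above 95%. The 6 control samples were labelled C/EBPbeta+/+ and the 3 knockout samples C/EBPβ-/-, the latter from CD11c.Cre x C/EBPβflox/flox mice, in which Cre is driven by the CD11c promoter and so acts in CD11c-expressing cells. The design text gives the controls as CD11c-Cre-eGFP mice, while the protocols also list C57BL/6 mice as a source, and neither the animals' ages nor the mice behind each single control were stated. The labels do not tie replicates to different animals. All p-values therefore rest on the variation among these 9 arrays, part or all of which could be technical.

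Each sample was hybridised to 1 array, and values are log2 intensities, so a difference of 1 is a doubling. Array medians lay between 5.49 and 5.56. Signals of different probes depend on the probes, so no gene's level is set against another's. Differences are knockout minus control, tested with limma, with Benjamini-Hochberg adjustment across the 22180 genes and a threshold of 0.05. The deleted gene, Cebpb, read 6.77, 6.86, 7.15, 6.64, 6.66 and 6.76 in controls 1 to 6 and 5.37, 5.60 and 5.42 in knockouts 1 to 3. It fell by 1.35 (SE 0.11, limma with Benjamini-Hochberg adjusted p = 0.00074). The groups did not overlap, and scipy's two-sided exact permutation test, which doubles the smaller tail of the 84 possible arrangements, gave p = 0.024, the smallest it can give here. The defining markers of the sort were present in both groups, with means of 12.16 and 12.15 for Itgax (CD11c) and 13.68 and 13.72 for H2-Ab1 (an MHC class II chain) in control and knockout samples. Of all 14 conventional DC markers measured, 10 had a negative difference, with a median of -0.09 and none past the limma threshold. Those with the smallest p, at an unadjusted limma p below 0.05, were Clec4a4, a lectin receptor (-0.30, SE 0.081, limma adjusted p = 0.12, without overlap), and Cd8a (-0.22, SE 0.089, limma adjusted p = 0.28). These 2 were 14.3% of the list, against 8.82% of all genes and 13.8% of genes above the median of all probes on the lower side. All knockouts lay below all controls in 1 marker (7.14%, all genes 4.88%) and above them in 1 other (7.14%, all genes 2.52%). Across the whole array 201 genes passed the threshold (0.906%), 109 lower (0.491%) and 92 higher (0.415%) in the knockouts, a count that ran from 33 without knockout 2 to 332 without knockout 1.

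Promoters of 6 complex I genes are shown first, because the groups of 5 of them did not overlap and the sixth, Ndufc1, holds the same motif as 3 of them with a difference of the opposite sign. They were chosen after their values were seen. Windows run from 250 bases before to 50 bases after the start of the gene (RefSeq, GRCm38.p6), 5′ to 3′ on the gene's strand, and capitals mark a motif match on either strand. In Ndufa4 (chr6:11907401-11907700, minus strand) the capitals match the C/EBP spelling TTNNGCAA. In Ndufs7 (chr10:80249199-80249498, plus strand), Ndufa9 (chr6:126849095-126849394, minus strand), Ndufs4 (chr13:114388045-114388344, minus strand) and Ndufc1 (chr3:51408906-51409205, minus strand) they match the YY1 spelling AANATGGCG, and in Ndufs8 (chr19:3912725-3913024, minus strand) the ETS and GABP spelling CCGGAAG.
Ndufa4: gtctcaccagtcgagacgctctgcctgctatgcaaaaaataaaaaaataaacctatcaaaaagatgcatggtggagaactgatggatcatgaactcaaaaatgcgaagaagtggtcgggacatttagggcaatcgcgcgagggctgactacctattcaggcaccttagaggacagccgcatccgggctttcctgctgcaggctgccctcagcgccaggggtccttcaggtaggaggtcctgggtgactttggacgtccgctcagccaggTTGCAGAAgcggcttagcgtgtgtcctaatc
Ndufs7: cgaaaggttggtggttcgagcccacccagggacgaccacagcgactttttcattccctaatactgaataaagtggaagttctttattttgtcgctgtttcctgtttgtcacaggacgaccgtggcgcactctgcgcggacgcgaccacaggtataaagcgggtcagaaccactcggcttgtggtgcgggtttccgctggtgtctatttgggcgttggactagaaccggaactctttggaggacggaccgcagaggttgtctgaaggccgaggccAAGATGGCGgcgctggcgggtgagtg
Ndufa9: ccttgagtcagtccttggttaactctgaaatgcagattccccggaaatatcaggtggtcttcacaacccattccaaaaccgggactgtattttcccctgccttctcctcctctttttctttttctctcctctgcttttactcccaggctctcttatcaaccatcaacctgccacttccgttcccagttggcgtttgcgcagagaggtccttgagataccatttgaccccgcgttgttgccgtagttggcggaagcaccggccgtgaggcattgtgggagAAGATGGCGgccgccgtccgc
Ndufs4: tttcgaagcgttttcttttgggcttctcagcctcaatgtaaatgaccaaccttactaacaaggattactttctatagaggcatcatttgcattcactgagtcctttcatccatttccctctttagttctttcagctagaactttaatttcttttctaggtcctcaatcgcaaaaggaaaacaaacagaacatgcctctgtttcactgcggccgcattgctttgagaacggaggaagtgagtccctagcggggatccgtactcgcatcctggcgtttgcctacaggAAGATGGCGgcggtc
Ndufc1: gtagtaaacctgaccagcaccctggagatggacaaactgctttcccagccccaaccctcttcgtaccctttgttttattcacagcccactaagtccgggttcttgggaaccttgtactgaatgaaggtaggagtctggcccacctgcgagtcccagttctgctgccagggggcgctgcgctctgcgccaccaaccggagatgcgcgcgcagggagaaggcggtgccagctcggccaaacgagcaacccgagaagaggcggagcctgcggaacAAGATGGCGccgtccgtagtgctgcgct
Ndufs8: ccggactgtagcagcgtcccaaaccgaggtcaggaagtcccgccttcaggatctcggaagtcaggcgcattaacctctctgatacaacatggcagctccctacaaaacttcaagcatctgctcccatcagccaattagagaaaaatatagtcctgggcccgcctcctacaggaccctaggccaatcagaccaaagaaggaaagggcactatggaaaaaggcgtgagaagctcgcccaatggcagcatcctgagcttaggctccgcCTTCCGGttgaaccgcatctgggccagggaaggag

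A promoter window was found for 61 of the 76 members. NRF1, GABP and YY1 are known as activators of nuclear genes for mitochondrial proteins. The NRF1 spelling GCGCATGC lay in 9 of the 61 (14.8%), against 3.05% of all 27025 genes with a window. CCGGAAG lay in 15 of the 61 (24.6%), against 9.93%, and AANATGGCG in 9 (14.8%), against 2.76%, with 6 of these 9 in complex I. The C/EBP spelling TTNNGCAA lay in 7 of the 61 (11.5%), against 12.2% of all genes. Of these 7, 3 were in complex I: Ndufa4 (-0.33, without overlap), and Ndufa5 (-0.03) and Ndufs5 (0.03), both with overlapping groups. The median difference between knockout and control was -0.09 in the 7 members with the C/EBP spelling and -0.11 in the 54 without it. It was -0.11 with and -0.10 without the NRF1 spelling, -0.10 with and -0.11 without CCGGAAG, and -0.11 with and -0.10 without AANATGGCG. A match describes letters in the window and not a bound site.

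No member passed the limma threshold after adjustment over all genes, where 0.491% of all genes passed it on the lower side. Most read slightly lower in the knockouts. The difference was negative in 64 of 76 members (84.2%), against 55.0% of all genes and 62.1% of the 12708 genes above the median of all probes. The median difference was -0.11, against -0.01 for all genes and -0.04 for those brighter genes. At an unadjusted limma p below 0.05, 17 members read lower, against a background of 8.82% of all genes (13.8% of the brighter genes), and 1 read higher, the dim pseudogene Atp5c1-ps (background 5.5%). All 3 knockout values lay below all 6 control values in 14 members (18.4%), against 4.88% of all genes and 7.87% of the brighter genes. In no member did all 3 lie above, against 2.52% of all genes. Of the members, 67 lay above the median of all probes, and these included all 17 and all 14. Without knockout 3 the 17 became 11 (14.5%), where the share was 6.68% of all genes and 9.84% of the brighter genes. The count without overlap can only stay or rise when a sample is left out, and so does its background: it was 21 (27.6%) without knockout 1, where 9.52% of all genes and 15.0% of the brighter genes did not overlap, and 17 (22.4%) without knockout 3, against 8.24% and 11.9%.

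**Figure D1:**
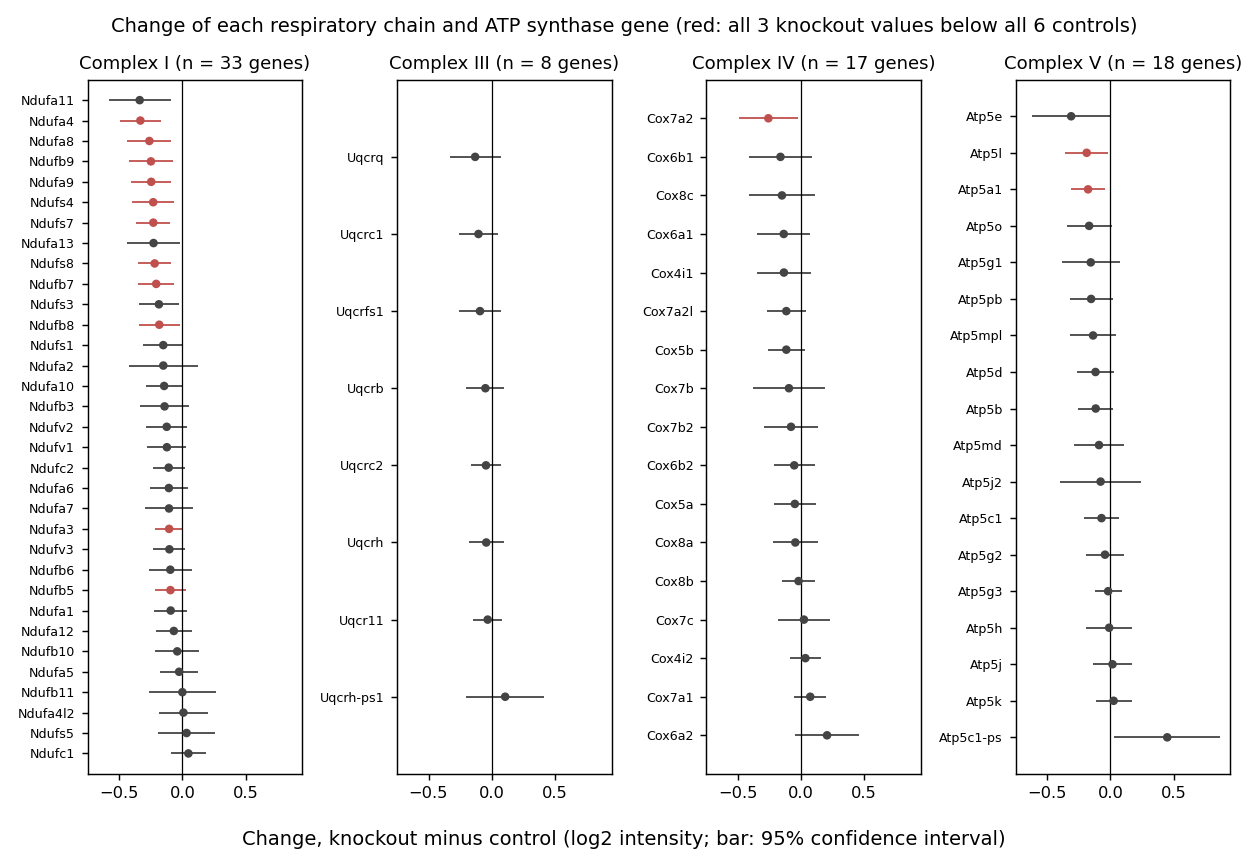
Difference between knockout and control (log2, x axis) with its 95% confidence interval for each member, by complex; red marks members whose 3 knockout values all lay below the 6 control values. Most points lie left of 0, the red ones are mainly in complex I (11 of 14), and no member passed the threshold after adjustment.

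The counts by complex were as follows, and differences between complexes were not tested. Over all genes, 8.82% reached an unadjusted limma p below 0.05 on the lower side (13.8% of the brighter genes). In 4.88% of all genes and 7.87% of the brighter genes all knockouts lay below all controls. In complex I, 29 of 33 members had a negative difference, with a median of -0.12. Of the 33, 13 (39.4%) reached an unadjusted p below 0.05 and 11 (33.3%) did not overlap. In complex III, 7 of 8 were negative, none reached an unadjusted p below 0.05 and none was free of overlap, with a median of -0.05. In complex IV, 13 of 17 were negative and 1 member (5.88%) met each of the other measures, with a median of -0.08. In complex V, 15 of 18 were negative, with a median of -0.10. On the lower side 3 (16.7%) reached an unadjusted p below 0.05, and 2 (11.1%) did not overlap.

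The samples differed in how far their members lay from the control mean. The median deviation over all members was -0.10, -0.05 and -0.13 in knockouts 1 to 3, and between -0.04 and 0.06 in the controls. For complex I it was -0.12, -0.12 and -0.15, against -0.06 to 0.08 in the controls, so that the groups did not overlap. For complex III it was -0.02, -0.02 and -0.05, inside the control range of -0.06 to 0.07. Complex IV read -0.12, 0.01 and -0.05 against -0.03 to 0.03, and complex V -0.07, -0.04 and -0.17 against -0.05 to 0.05. Knockout 3 held the lowest of all 9 values in 32 members, knockout 1 in 12 and knockout 2 in 11. The highest value lay in control 4 in 24 members and in control 3 in 18. Without knockout 3 complex I had a median of -0.12, with 9 of 33 members (27.3%) at an unadjusted limma p below 0.05 in place of 13. On the lower side the share in that setting was 6.68% of all genes and 9.84% of the brighter genes. Free of overlap were 13 (39.4%), against 8.24% of all genes and 11.9% of the brighter genes. Complex V then had a median of -0.06 and no member at an unadjusted p below 0.05.

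**Figure D2:**
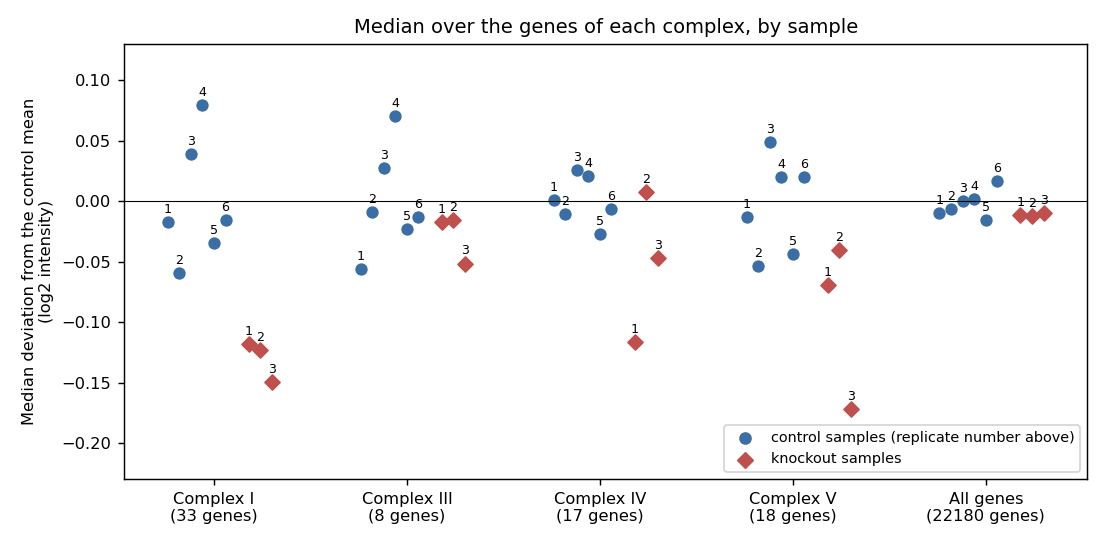
Median deviation of the members from their control mean (log2, y axis) in each of the 9 samples, by complex. Complex I is the one in which all 3 knockouts (-0.12, -0.12 and -0.15) lie well below the lowest control (-0.06), and knockout 2 lies at 0.01 in complex IV.

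Of the complex I members, Ndufa4 had the smallest p. Its product was first assigned to complex I and is now placed in complex IV, where it is a subunit of the finished enzyme. It read 10.65, 10.45, 10.58, 10.58, 10.42 and 10.39 in controls 1 to 6 and 10.27, 10.17 and 10.10 in knockouts 1 to 3. All 3 knockouts lay below the lowest control. The difference was -0.33 (SE 0.074, 95% interval -0.50 to -0.17), an intensity 20.6% lower, with a limma Benjamini-Hochberg adjusted p of 0.068. It passed the threshold with array weights (adjusted p = 0.034) and with dim genes removed (adjusted p = 0.036), and its limma adjusted p was 0.064 to 0.19 with 1 sample left out. Counting Ndufa4 in complex IV leaves 10 non-overlapping members in complex I.

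The core subunits of complex I carry its flavin and iron-sulfur clusters. Ndufs7, which holds the last cluster before coenzyme Q, read 9.70 to 9.88 in the controls (median 9.86) and 9.52, 9.61 and 9.64 in the knockouts. The groups did not overlap, and the difference was -0.23 (SE 0.062, limma adjusted p = 0.11). Ndufs8, which carries a pair of clusters of the same arm, read 9.80 to 9.94 (median 9.85) and 9.56, 9.71 and 9.64. It too did not overlap, with a difference of -0.22 (SE 0.059, limma adjusted p = 0.11). Ndufs3, a core subunit of the same arm without a cluster, read 6.64 to 6.94 (median 6.77) and 6.64, 6.55 and 6.57. Knockout 1 lay inside the control range, and the difference was -0.19 (SE 0.072). At the NADH end, the differences were smaller relative to their errors: -0.15 (SE 0.071) for Ndufs1, the largest subunit, -0.12 (SE 0.070) for Ndufv1, which binds NADH and flavin, and -0.12 (SE 0.073) for Ndufv2. All 3 overlapped between groups, and Ndufs1 was lowest in knockout 3, at 8.24 against 8.51 and 8.53 in the other knockouts.

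Accessory subunits surround this core and are needed for assembly and stability. Ndufa8, of the side facing the intermembrane space, read 10.06 to 10.34 in the controls (median 10.14) and 9.80, 9.90 and 10.04 in the knockouts, a difference of -0.26 (SE 0.079, limma adjusted p = 0.16). Its groups did not overlap, and its second probe differed by -0.30. Ndufb9, of the membrane arm, read 11.22 to 11.51 (median 11.23) and 11.05, 11.00 and 11.11, a difference of -0.25 (SE 0.078, limma adjusted p = 0.17). It did not overlap either. Ndufa11, also of the membrane arm, had the largest negative difference of all members, -0.34 (SE 0.11, limma adjusted p = 0.19). Its controls read 8.55 to 8.87 (median 8.66) and its knockouts 8.58, 8.42 and 8.08. Knockout 1 lay inside the control range, and the second probe of Ndufa11 differed by only -0.05 (SE 0.11).

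The next genes were chosen after their values were seen. Ndufa9, which sits where the 2 arms of complex I meet, read 9.59 to 9.69 in the controls (median 9.64) and 9.50, 9.47 and 9.21 in the knockouts, a difference of -0.25 (SE 0.072). Ndufs4, whose loss in mice causes a fatal brain disease resembling Leigh syndrome, read 8.56 to 8.77 (median 8.61) and 8.45, 8.52 and 8.26, a difference of -0.23 (SE 0.075). Neither overlapped, and knockout 3 was lowest in both. The other non-overlapping members were Ndufb7 (-0.21), Ndufb8 (-0.18), Ndufa3 (-0.10) and Ndufb5 (-0.09), all accessory subunits. Ndufa13 (-0.23) and Ndufa10 (-0.14) reached an unadjusted limma p below 0.05 with overlapping groups.

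The 4 complex I members without a negative difference were Ndufc1, Ndufb11, Ndufs5 and Ndufa4l2. Ndufc1, a small accessory subunit, read 7.67 to 7.85 in the controls and 7.73, 7.73 and 7.88 in the knockouts, a difference of 0.05 (95% interval -0.09 to 0.19). Ndufb11 differed by 0.00 (95% interval -0.26 to 0.26). Ndufs5 read at 4.80 in the control mean, below the median of all probes, and differed by 0.03 (SE 0.10), while a brighter probe shared with its pseudogene Ndufs5-ps differed by -0.34 with overlapping groups. The paralog Ndufa4l2, known as a target of hypoxia signalling, was also dim, with means of 4.17 and 4.18. Several of these genes have near-identical pseudogene copies whose transcripts could bind the same probes, and values of single members are uncertain to that extent.

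**Figure D3:**
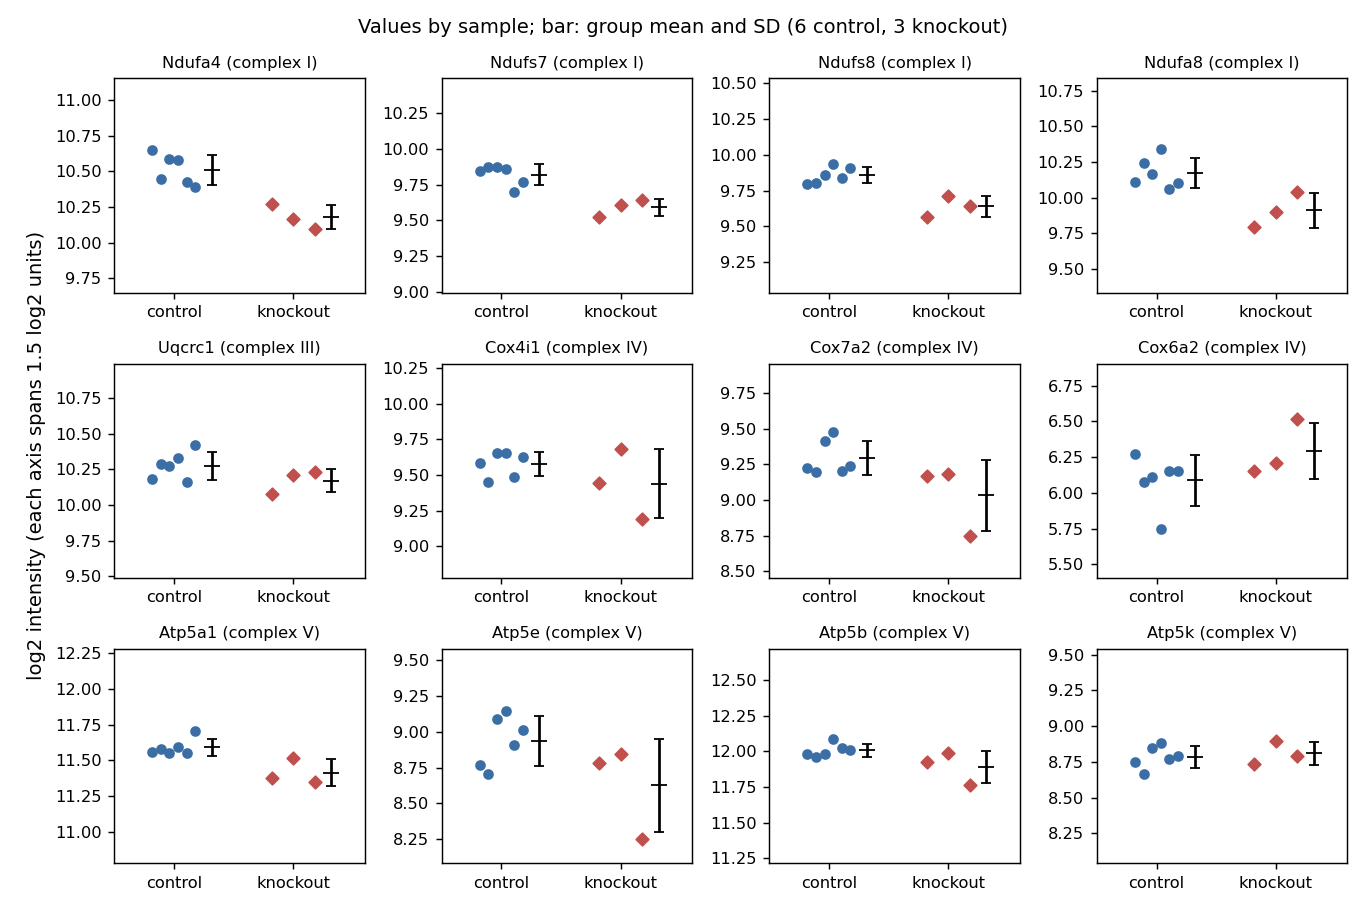
Log2 intensity (y axis) in each of 6 control and 3 knockout samples for 12 members of the 4 complexes, with the mean and SD of each group. In Ndufa4, Ndufs7 and Ndufs8 all 3 knockouts lie below the lowest control.

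Complex III passes electrons from coenzyme Q to cytochrome c. The Rieske iron-sulfur protein Uqcrfs1 read 7.01 to 7.10 in the controls (median 7.04) and 7.06, 7.08 and 6.75 in the knockouts. Only knockout 3 was low, and the difference of -0.09 (SE 0.075) became 0.01 without it. The core protein Uqcrc1 read 10.16 to 10.42 (median 10.28) and 10.08, 10.21 and 10.23, a difference of -0.10 (95% interval -0.26 to 0.05). Uqcrc2, its partner, differed by -0.05 (95% interval -0.16 to 0.07). Among small subunits, Uqcrq differed by -0.13 (SE 0.091) and Uqcrb by -0.05 (SE 0.068). The groups of all 8 members overlapped, and the dim pseudogene Uqcrh-ps1 had the one positive difference, 0.11 (SE 0.14).

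Complex IV reduces oxygen, and its nuclear subunits surround a catalytic core made in the mitochondrion. Cox7a2, the widely expressed form of subunit 7a, read 9.20 to 9.47 in the controls (median 9.23) and 9.17, 9.18 and 8.74 in the knockouts. On the brightest probes it was the one member of complex IV without overlap, with knockout 2 (9.185) just below the lowest control (9.199). The difference was -0.26 (SE 0.11, limma adjusted p = 0.30), and it was -0.12 without knockout 3. Of the subunits that join the core early, Cox4i1 differed by -0.14 (SE 0.097), Cox5a by -0.05 (SE 0.076) and Cox5b by -0.12 (SE 0.067), all with overlapping groups. Cox4i1 read 9.45, 9.68 and 9.19 in the knockouts, with knockout 2 above every control (9.45 to 9.65). A dimmer second probe of Cox5b differed by -0.36 (SE 0.093, limma adjusted p = 0.11 over all probes). It read 4.85, 4.95 and 4.72 in knockouts 1 to 3, all below the lowest control (4.98), at a level below the median of all probes.

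Several complex IV subunits exist as tissue isoforms. Cox6a2, a form typical of heart and skeletal muscle, had the largest positive difference of this complex, 0.21 (SE 0.11). It read 5.75 to 6.27 in the controls (median 6.13) and 6.15, 6.21 and 6.51 in the knockouts, and only knockout 3 lay above every control. Cox6a2 is also known from plasmacytoid DCs, and 7 other markers of these cells had a median deviation of 0.47 in knockout 3, against 0.05 and 0.03 in knockouts 1 and 2. Their part in this value was not tested. Its widely expressed counterpart Cox6a1 differed by -0.14 (SE 0.096). The lung form Cox4i2 (0.03), the muscle forms Cox7a1 (0.07) and Cox8b (-0.02), and the testis forms Cox6b2 (-0.05), Cox7b2 (-0.08) and Cox8c (-0.15) all overlapped. Of the remaining forms, Cox6b1 differed by -0.16, Cox7a2l by -0.12, Cox7b by -0.10, Cox8a by -0.05 and Cox7c by 0.02.

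In complex V a rotor in the membrane (Fo) turns a central stalk within the catalytic head (F1), which an outer stalk holds still. Atp5a1, the alpha subunit of the head, read 11.55 to 11.71 in the controls (median 11.57) and 11.38, 11.52 and 11.35 in the knockouts. The groups did not overlap, and the difference was -0.18 (SE 0.062, limma adjusted p = 0.22). Atp5b, the catalytic beta subunit, read 11.96 to 12.08 (median 12.00) and 11.92, 11.99 and 11.76, overlapping in knockout 2, with a difference of -0.12 (SE 0.063). The rotor stalk subunits Atp5c1 (gamma) and Atp5d (delta) differed by -0.07 (SE 0.062) and -0.12 (SE 0.067), and a second probe of Atp5d differed by 0.06. Atp5e, the small epsilon subunit, differed by -0.31 (SE 0.14), with knockouts at 8.78, 8.85 and 8.25 and controls from 8.70 to 9.14. Only knockout 3 lay below the controls, and the difference was -0.12 without it, while a second probe of Atp5e differed by -0.20 (SE 0.077).

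The outer stalk and membrane part gave mixed values. Atp5l, subunit g of the membrane part, read 9.84 to 10.19 in the controls (median 9.97) and 9.80 in each knockout, without overlap, a difference of -0.19 (SE 0.076). Atp5o, which joins head and outer stalk, differed by -0.17 (SE 0.081) with overlapping groups. The genes Atp5g1, Atp5g2 and Atp5g3 encode the same mature rotor ring subunit and differed by -0.16, -0.04 and -0.02, with all 3 overlapping. Atp5j (0.02) and Atp5k (0.03) were close to 0, and Atp5h differed by -0.01 on its brightest probe and 0.15 on a second. The pseudogene Atp5c1-ps read 2.70 to 3.62 in the controls and 3.94, 3.61 and 3.51 in the knockouts, a difference of 0.45 (SE 0.19) at a level where most probes carry little signal.

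A list of core subunits of complexes I, III and V and of the nuclear subunits Cox4i1, Cox5a and Cox5b of complex IV had 16 measured genes. All 16 had a negative difference, against 55.0% of all genes and 62.1% of the brighter genes. Their median was -0.12 (all genes -0.01, brighter genes -0.04). Ndufs7, Ndufs8 and Atp5a1 (18.8%) did not overlap between groups, against 4.88% of all genes and 7.87% of the brighter genes. None of the 16 passed the threshold.

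Of the 13 subunits encoded by mitochondrial DNA, 10 were measured on single-symbol probes, 9 of them with a positive difference, and the median was 0.06. Their median deviation was 0.06, 0.02 and 0.07 in knockouts 1 to 3, inside the control range of -0.05 to 0.08. ND1, a core subunit of complex I, read 13.15 to 13.34 in the controls and 13.38, 13.31 and 13.39 in the knockouts, a difference of 0.10 (SE 0.057). CYTB, the cytochrome b of complex III, differed by 0.07 (SE 0.053). ND3, named after its values were seen, was the one with a negative difference, -0.08 (SE 0.063). None passed the threshold or was free of overlap, and none reached an unadjusted limma p below 0.05. Complex II, whose 4 subunits are all nuclear, had a median of -0.13 and none past the threshold or at an unadjusted limma p below 0.05. Sdhb, its iron-sulfur subunit, differed by -0.13 (SE 0.061) without overlap, and Sdha, its flavin subunit, by -0.14 (SE 0.076).

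Genes that build and serve the chain were read from lists by function. Of 49 assembly factors 46 were measured, 43 with a negative difference (93.5%, all genes 55.0%), and the median was -0.14. Their median deviation was -0.035, -0.11 and -0.27 in knockouts 1 to 3 and -0.09 to 0.11 in the controls. Knockout 1 thus lay inside the control range, and knockout 3 held the lowest of all 9 values in 32 genes. Of the 46, 5 (10.9%) did not overlap, against 4.88% of all genes and 7.87% of the brighter genes. In this list Atpaf1, a chaperone for the ATP synthase head, was the one gene past the threshold. It read 6.98, 6.92, 7.17, 7.03, 7.17 and 7.10 in controls 1 to 6 and 6.76, 6.69 and 6.49 in the knockouts. It fell by 0.41 (SE 0.080, limma with Benjamini-Hochberg adjusted p = 0.047), and all 3 knockouts lay below every control. The call was lost when any 1 of controls 1, 3, 4, 5 and 6 or knockouts 2 and 3 was left out (limma adjusted p 0.076 to 0.15), and kept without control 2 or knockout 1. It was also lost after median centring (limma adjusted p = 0.069) and with controls 1 to 3 alone (limma adjusted p = 0.35). The same held with controls 4 to 6 alone (limma adjusted p = 0.12) and with the replicate block (limma adjusted p = 0.47). The other settings kept the call. Cox10, which makes the heme of complex IV, differed by -0.25 (SE 0.069, limma adjusted p = 0.13) without overlap.

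Of 15 genes for electron carriers and coenzyme Q synthesis 14 were measured, with a median of -0.07 and none past the threshold. At an unadjusted limma p below 0.05, 2 (14.3%) were lower and 1 was higher. Over all genes 8.82% were lower (13.8% of the brighter genes) and 5.5% higher. Cyc1, the cytochrome c1 of complex III, differed by -0.20 (SE 0.059, limma adjusted p = 0.15) without overlap, and Coq10b, a coenzyme Q binding protein, by 0.34 (SE 0.12). The 16 regulators of mitochondrial biogenesis had a median of -0.09, with none past the threshold. At an unadjusted limma p below 0.05, 3 (18.8%) were lower, against the same 8.82% and 13.8%. Twnk, the helicase of mitochondrial DNA, differed by -0.22 (SE 0.078) and Esrra, a nuclear receptor that activates respiratory genes, by -0.16 (SE 0.060). Slc25a5, which exchanges ADP and ATP across the inner membrane, differed by -0.19 (SE 0.056, limma adjusted p = 0.15) without overlap, and its relative Slc25a4 by -0.10 (SE 0.058). The 71 mitochondrial ribosomal proteins, which serve translation of the mitochondrial subunits, had a median of -0.14, with none past the threshold. Of the 71, 63 were negative (88.7%, all genes 55.0%). Free of overlap were 15 (21.1%), against 4.88% of all genes and 7.87% of the brighter genes. At an unadjusted limma p below 0.05, 22 (31.0%) were lower, against 8.82% and 13.8%. Mrps28 (-0.40, SE 0.11) and Mrps34 (-0.35, SE 0.098) had the smallest p of that list, and both overlapped. The share of genes free of overlap was thus 21.1% here and 18.4% among the members, and their difference was not tested.

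**Figure D4:**
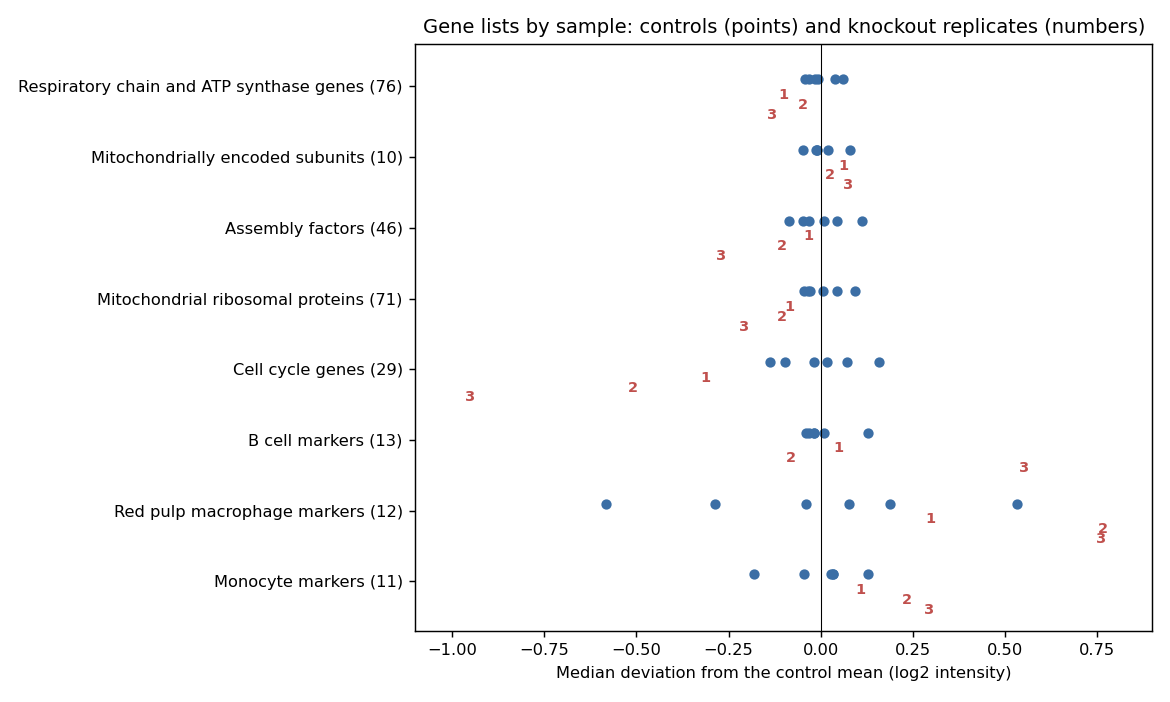
Median deviation from the control mean (log2, x axis) of 8 gene lists, with controls as points and knockouts as replicate numbers. The members, assembly factors and mitochondrial ribosomal proteins lie below 0 in all 3 knockouts, though knockout 1 lies within the controls for the assembly factors. The mitochondrially encoded subunits lie above 0 but within the controls, and the cell cycle list lies furthest below, to -0.95 in knockout 3.

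Other genes moved with the groups. Of 29 cell cycle genes all had a negative difference (all genes 55.0%), with a median of -0.59. Past the limma threshold 7 fell, where 0.491% of all genes passed it on the lower side. At an unadjusted limma p below 0.05, 27 (93.1%) were lower, against 8.82% of all genes and 13.8% of the brighter genes. All knockouts lay below all controls in 21 (72.4%), against 4.88% and 7.87%. The median deviation of the 29 genes was -0.31, -0.51 and -0.95 in knockouts 1 to 3 and -0.14 to 0.16 in the controls. Ccna2, a cyclin of S and G2 phase, fell by 0.59 (SE 0.087, limma adjusted p = 0.017) and Ube2c, of the mitotic ubiquitin machinery, by 0.56 (SE 0.075, limma adjusted p = 0.011). The 7 became 1 without knockout 2, 2 without control 6, 3 without control 3 or control 4, 4 without control 1, control 5 or knockout 3, 6 without control 2, and 21 without knockout 1. With controls 1 to 3 alone, controls 4 to 6 alone or the replicate block, 0 of the 29 genes passed. With array weights or with dim genes removed, 17 of these genes did. Their part in the values of the members was not tested.

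Markers of other cells also differed between samples. The 12 red pulp macrophage markers had median deviations of 0.30, 0.77 and 0.76 in the knockouts and -0.58 to 0.53 in the controls. All 12 had a positive difference, 8 at an unadjusted limma p below 0.05 (all genes 5.5% on the higher side). In 3 of them all knockouts lay above all controls (all genes 2.52%). The 11 monocyte markers stood at 0.11, 0.23 and 0.29 against -0.18 to 0.13. All 11 had a positive difference, 5 at an unadjusted limma p below 0.05 and 3 with all knockouts above all controls. Of the latter, Ace rose by 1.16 (SE 0.15, limma adjusted p = 0.010), and the Fc receptor Fcgr1 differed by 0.80 (limma adjusted p = 0.070). The macrophage receptors Cd163 and Axl differed by 0.42 and 0.81 (limma adjusted p = 0.074 and 0.081). The 13 B cell markers stood at 0.05, -0.08 and 0.55 against -0.04 to 0.13. Of the 13, 9 had a positive and 4 a negative difference, and none passed the threshold. Below the control mean lay 6 in knockout 1 and 12 in knockout 2, while 12 lay above every control in knockout 3. Cd79a read 10.21 in knockout 3 and 7.29 to 8.24 in the controls. Blk read 8.08, 7.26 and 7.99 in the knockouts and 7.23 to 7.43 in the controls. Of 8 plasmacytoid DC markers, 6 had a positive and 2 a negative difference. Siglech differed by 0.29 (SE 0.11) and Klk1 by 0.83 (SE 0.32), both with overlapping groups. Neutrophil, T and NK cell markers (11 measured, 7 positive and 4 negative) stood at 0.15, -0.02 and 0.10 against -0.02 to 0.03. The neutrophil genes S100a8 and Ly6g differed by 0.19 (SE 0.071) and 0.22 (SE 0.10), both overlapping. The 14 conventional DC markers measured stood at -0.09, -0.01 and -0.10 against -0.07 to 0.05. In sorted bulk samples fewer cells of a type and less RNA per cell cannot be told apart, and the part of these markers in the values of the members was not tested.

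**Figure D5:**
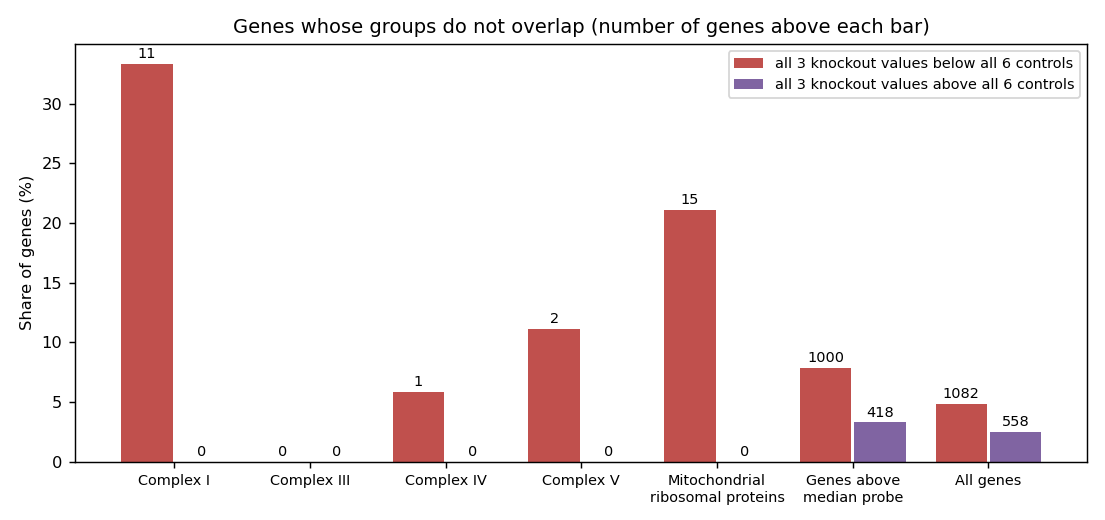
Share (%, y axis) of genes whose 3 knockout values all lay below (red) or above (purple) the 6 control values, for each complex, mitochondrial ribosomal proteins, genes above the median of all probes and all genes, with the number of genes over each bar. Complex I reached 33.3% on the lower side, against 21.1% of the ribosomal proteins, 7.87% of the brighter genes and 4.88% of all genes.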

How the data were processed

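Total RNA of sorted splenic DCs was amplified with a whole-transcript kit, labelled with biotin and measured on 9 single-colour arrays. Each deposited value is the log2 intensity of a probe, which the authors obtained with RMA (background correction, quantile normalization and probe summary), per the submitters' processing notes; version and genome build: not given in the sources used here. Quantile normalization removes a shift shared by most genes, and RMA compresses differences of dim probes. Of 41801 probes, 7329 had no value and 4 lacked a value in some sample, leaving 34468, of which 23521 had 1 gene symbol, 1814 several and 9133 none in the platform annotation. No filter on signal was applied.

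Groups follow the labelled genotype. The knockout-control difference was tested in R 4.3.3 with limma 3.58.1 (two-sided, lmFit then eBayes, without covariates), adjusted by Benjamini-Hochberg over 22180 genes at 0.05, after a test on simulated data. Tables, the exact permutation test and figures used Python 3.11.15, pandas 2.3.3, numpy 2.4.6, scipy 1.17.1 and matplotlib 3.10.9. The number of arrays limits precision. The members, gene lists and tests were chosen with earlier results of these data known.

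Named genes were Cebpb, members past 0.05, in each complex the 4 largest positive and 4 largest negative differences, core subunits (with Cox4i1, Cox5a and Cox5b), isoform members, members whose probes differ in sign, and of each other list the 2 genes with the smallest p. Genes named outside this rule are Ndufa5, Ndufa9, Ndufs4, Ndufb7, Ndufb8, Ndufa3, Ndufb5, Ndufa13 and Ndufa10, and Itgax, H2-Ab1 and ND3, all picked with their values in view.

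Alternative settings were: arrays centred on their medians; quantile normalization repeated; array weights; a trended, robust eBayes; a block for the replicate number; only controls 1 to 3, or only 4 to 6; leaving out single samples; removal of dim genes; averaging a gene's probes; and other membership (Ndufa4 in complex IV, no pseudogenes or non-subunits).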

Additional observations from a re-analysis of the deposited data

Results flagged for a closer look

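Among the 6 controls, 1 sample stood apart from the others in 8 of 82 genes examined by Dixon's criterion. Chance gives about 1 in 20 for independent, normally distributed values without ties. Control 4 was the sample in 5 of the 8: it was high in Ndufa5 (7.41, others 7.13 to 7.22), Ndufs5 (5.11, others 4.66 to 4.80), Ndufv3 (7.59, others 7.47 to 7.50) and Uqcr11 (7.17, others 7.06 to 7.07), and low in Cox6a2 (5.75, others 6.08 to 6.27). Control 3 was high in Cox5b (10.06, others 9.90 to 9.94) and Ndufc2 (9.65, others 9.51 to 9.55). Control 6 was high in Atp5a1 (11.71, others 11.55 to 11.59). Uqcr11, Ndufa5, Ndufv3, Ndufc2, Cox5b and Cox6a2 had identical values in more than 1 control. The count of 8 was therefore not read against the rate by chance.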

How the results depend on the processing

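With 3 knockout arrays and differences of at most 0.45, single members are near the limit of what the test can call. The median over all members stayed negative under each alternative (-0.12 to -0.08), as did complex I (-0.17 to -0.11) and complex III (-0.07 to -0.03). Not all alternatives are separate checks of a median. The trended, robust eBayes leaves the differences as they are, and the replicate block gives the same differences as controls 1 to 3 alone. The median of complex IV was -0.027 with array weights, -0.049 with controls 1 to 3 alone and -0.049 with the replicate block, and -0.11 to -0.044 with 1 sample left out. That of complex V was -0.060 with array weights and -0.15 to -0.064 with 1 sample left out. Of the members, 1 (Ndufa4) passed 0.05 with array weights and 1 (Ndufa4) with dim genes removed. Genes past 0.05 numbered 652 with array weights, 3 with controls 1 to 3 alone, 20 with controls 4 to 6 alone, 125 after median centring (62 higher, 63 lower), 483 with dim genes removed (190 higher, 293 lower), 2 with the replicate block and 33 to 332 with 1 sample left out. Among counts added after seeing the data, members at an unadjusted limma p below 0.05 on the lower side numbered 11 with controls 1 to 3 alone. That was 14.5%, against 5.64% of all genes and 7.69% of the brighter genes. They numbered 11 to 19 with 1 sample left out. Members without overlap numbered 23 with controls 4 to 6 alone (30.3%, all genes 12.5%, brighter genes 20.1%). After median centring they numbered 12 (15.8%, all genes 4.49%, brighter genes 6.89%), of which 9 were in complex I and 0 in complex IV. Same-numbered control and knockout samples did not deviate together (correlations -0.14, -0.10 and 0.05), and no knockout correlated best with its own number, so the numbers were not taken as pairs. With the replicate block Cebpb differed by -1.47 (limma adjusted p = 0.14). Of 910 values of 51 named members, 42 changed sign, in 17 members, none with an unadjusted p below 0.05. For other changes the cause was not tested.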
